A study of Rattus norvegicus with 9 samples.

Results

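This report describes 9 genes of Wnt signalling in cultured rat Schwann cells, the glial cells that wrap the axons of peripheral nerves: Dact2, Ccdc88c, Axin2, Ctnnb1, Apc, Gsk3b, Fzd1, Fzd2 and Tcf7l2. Every probe set of the array that was annotated to exactly 1 of these genes was taken, which gave 18 probe sets of 9 genes, out of 31099 probe sets and 14213 genes in all. Dact2 and Ccdc88c were taken because of their measured values in these arrays. Ranked by the difference between NF1 RNAi and Control RNAi, Ccdc88c stood 8th and Dact2 9th of 14213 genes, so their values are described below with no test. The other 7 genes, with 16 probe sets, are core pathway genes and were tested, though they too were chosen with earlier results of these data known.

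Primary Schwann cells from rat sciatic nerve were transiently transfected with RNAi oligonucleotides, and total RNA was taken 48 h later. The 3 groups had 3 arrays each, from independent biological replicates: Control RNAi (a scrambled oligonucleotide), NF1 RNAi (against Nf1, the gene of neurofibromin, which turns off Ras), and NF1 RNAi with U0126, which blocks MEK and with it the ERK kinases downstream of Ras. All groups were transfected, and the labels name no vehicle for U0126. Control RNAi cells with U0126 are not analysed here, so the effect of U0126 in cells with normal Nf1 cannot be told apart from its effect in NF1 RNAi cells.

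Wnt proteins are secreted signals that bind Frizzled receptors together with Lrp5 or Lrp6 at the cell surface. Without a Wnt signal, a destruction complex of Axin, Apc, the kinase Gsk3b and casein kinase marks beta-catenin, the product of Ctnnb1, for degradation. With a signal, Dishevelled is recruited to the receptor, the complex is held off, and beta-catenin enters the nucleus and works with transcription factors of the TCF/LEF family, such as Tcf7l2. Axin2 is a widely used target gene of this branch and also a brake on it, while Dact2 and Ccdc88c (also called Daple) encode proteins that bind Dishevelled. In Schwann cells, Wnt signalling has been linked to proliferation and to the control of myelin genes.

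The sequence before the gene start is shown for the 3 members for which each probe set was higher in every NF1 RNAi array, with or without U0126, than in any control, because TCF/LEF factors are known to bind a core of CTTTGA. These are RefSeq promoter windows of build GRCr8, printed 5′ to 3′ on the strand of the gene, from 250 bases before the annotated start up to the start. Capitals mark CTTTGA, or its reverse complement TCAAAG.
Dact2: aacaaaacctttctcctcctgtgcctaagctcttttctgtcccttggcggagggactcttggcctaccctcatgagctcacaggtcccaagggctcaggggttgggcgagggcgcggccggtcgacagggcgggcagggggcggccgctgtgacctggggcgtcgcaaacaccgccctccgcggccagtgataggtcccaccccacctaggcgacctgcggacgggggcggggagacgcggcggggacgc
Ccdc88c: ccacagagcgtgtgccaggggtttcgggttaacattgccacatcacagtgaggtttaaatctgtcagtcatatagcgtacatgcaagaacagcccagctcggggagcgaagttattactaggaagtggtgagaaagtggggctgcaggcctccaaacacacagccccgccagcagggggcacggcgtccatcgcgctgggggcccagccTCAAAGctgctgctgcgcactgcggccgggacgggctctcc
Axin2: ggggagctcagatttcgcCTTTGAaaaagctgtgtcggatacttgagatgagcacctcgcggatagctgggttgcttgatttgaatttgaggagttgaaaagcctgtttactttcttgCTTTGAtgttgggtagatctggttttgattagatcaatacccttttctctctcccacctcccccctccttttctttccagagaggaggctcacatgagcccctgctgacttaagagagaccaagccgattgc
The Dact2 stretch is chr1:63863099-63863348 on the minus strand and holds no match. The Ccdc88c stretch, chr6:126019163-126019412 on the minus strand, holds 1 match, whose first base lies 41 bases before the start. The Axin2 stretch, chr10:94398535-94398784 on the plus strand, holds 2 matches, at 232 and 132 bases before the start. The table held 10 windows for 8 of the 9 members, each reaching 50 bases past the start, and Fzd2 had none. Searched over both strands of the whole windows, CTTTGA was in no window of the other members with one, nor in the 2 further Ccdc88c windows, and 16.1% of all 33469 windows held it. The AP-1 motif TGANTCA, read on both strands, was in none of the 10 member windows and in 7.33% of all windows. A match describes these letters only.

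The Nf1 probe set checked the labels first. Nf1 stood at log2 6.65, 6.59 and 6.15 in the Control RNAi arrays, at 5.39, 5.41 and 5.44 with NF1 RNAi, and at 5.44, 5.72 and 5.39 with NF1 RNAi and U0126, so both RNAi groups lay below every control array. It fell by 1.05 ± 0.13 (SE) on the log2 scale with NF1 RNAi (limma adjusted p = 0.000763) and by 0.95 ± 0.13 with NF1 RNAi and U0126 (adjusted p = 0.000754). Array medians lay between 95.0 and 97.1 intensity units. Replicate 1 stood apart in each group, most in the controls, where its probe sets differed from replicates 2 and 3 with an SD of 0.31 and 0.358 (log2), against 0.152 between replicates 2 and 3. All 5 measured Schwann cell markers (S100b, Sox10, Ngfr, Erbb3 and Mbp) were at log2 8 or above in every array, and their mean per array was 11.21 to 11.49 in controls, 11.63 to 11.66 with NF1 RNAi and 11.36 to 11.39 with U0126 added. S100b rose by 0.79 with NF1 RNAi (adjusted p = 0.000169). With U0126 against NF1 RNAi, S100b fell by 0.38 (adjusted p = 0.0132) and Erbb3 by 1.08 (adjusted p = 0.0138). With both against control, S100b was 0.42 higher (adjusted p = 0.00280) and Sox10 0.22 lower (adjusted p = 0.0416). Ngfr and Mbp passed in no comparison. Of 8 fibroblast markers, Col1a1, Col1a2 and Col3a1 were at log2 8 or above in every array while Dcn, Lum and Pdgfra stayed below log2 6. Col3a1 had group means of 12.33, 10.27 and 10.73 and fell with NF1 RNAi (adjusted p = 0.00377), Col1a1 and Col1a2 fell with both against control (adjusted p = 0.00542 and 0.00424), and the list mean per array was 8.06 to 8.31, 7.76 to 8.06 and 7.69 to 8.03 in the 3 groups. All 5 endothelial markers measured, 5 of 8 macrophage and leukocyte markers and 5 of 6 neuron markers stayed below log2 6 in every array. Tubb3, a neuronal tubulin, had group means of 8.89, 6.59 and 5.76 and fell with NF1 RNAi (adjusted p = 0.00154), while Rbfox3 rose by 0.30 (adjusted p = 0.0359). Of the macrophage and leukocyte markers, Laptm5 rose with NF1 RNAi (6.98, 7.32 and 7.18 in the 3 groups, adjusted p = 0.00480), and Cd68 rose with U0126 (5.85, 6.02 and 6.92, adjusted p = 0.00166). With both against control, 3 of these 8 rose, against 16.6% of all genes. The part of these markers in the results below was not tested. In such bulk samples, fewer cells of a type and less RNA per cell cannot be told apart.

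With NF1 RNAi against Control RNAi, Axin2 rose, the kinase gene Gsk3b and the receptor gene Fzd2 fell, and 2 of the 5 Tcf7l2 probe sets rose slightly. None of the 8 probe sets of Ctnnb1, Apc and Fzd1 passed the limma test, where 3 had an unadjusted p under 0.05 (1 of Ctnnb1 and 2 of Apc, all higher). At an adjusted p under 0.05, the test called 5 of the 16 probe sets, in 4 of 7 genes, against 20.4% of all 31042 probe sets. Of these, 3 were higher, against 10.6% of all, and 2 were lower, against 9.84%. The count fell to 3 without Control RNAi replicate 1, without NF1 RNAi replicate 2 or 3, or without U0126 replicate 2 or 3. It was also 3 with only these groups fitted, and 10 with array weights. The 16 had a median log2 difference of 0.16, against 0.0249 for all probe sets, and 14 of them were above 0. Those 14 include all 4 probe sets of Ctnnb1, 3 of Apc and 5 of Tcf7l2, so they are not separate genes. The share of all probe sets above 0 was not counted. Arrays of the groups did not overlap for 10 of 16, which holds for 35.3% of all probe sets.

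When U0126 was added to NF1 RNAi, Fzd1 rose 2.41-fold, and 3 probe sets of Ctnnb1, 2 of Apc and 1 of Tcf7l2 fell. Axin2 and Gsk3b did not pass the test, nor did Fzd2 (adjusted p = 0.0563). Fzd2 passed with the replicate number as a block, and without a block in some, not all, other settings. Examples are array weights (adjusted p = 0.0236), quantile normalization (0.0454) and all replicate 1 arrays left out (0.0255). The test called 7 of 16 probe sets here, in 4 of 7 genes, against 10.0% of all probe sets. Of these, 1 was higher, against 4.45% of all, and 6 were lower, against 5.58%. The median log2 difference was -0.24, against 0.0172 for all, and 13 of 16 were below 0. Here too the 4 Ctnnb1, 3 Apc and 5 Tcf7l2 probe sets all had the same sign, and probe sets of the same gene are not independent. The share of all probe sets below 0 was not counted. The arrays did not overlap for 12 of 16, against 28.6% of all.

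With NF1 RNAi and U0126 against Control RNAi, Axin2 and Fzd1 rose, while Gsk3b and 2 Ctnnb1 probe sets fell. That made 5 of 16, in 4 of 7 genes, against 28.1% of all probe sets. Of these, 2 were higher, against 14.2% of all, and 3 were lower, against 13.9%. With the replicate block the count was 8, the 3 added being Fzd2, 1 probe set of Apc and 1 of Ctnnb1, all lower. The arrays did not overlap for 10 of 16, against 41.0% of all. This comparison shares its control arrays with the first and its treated arrays with the second, so the 3 sets of values are given side by side and are not independent.

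**Figure D1:**
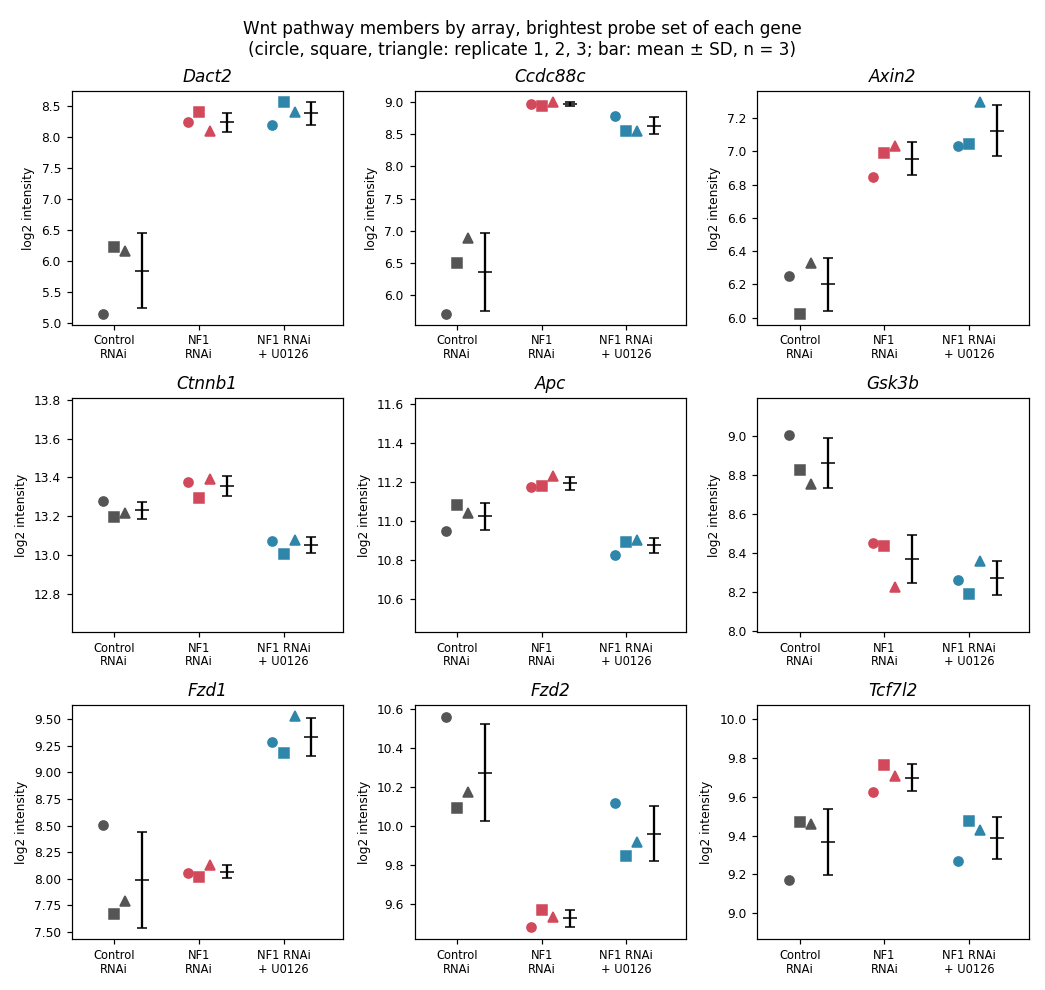
Log2 intensity (vertical axis) of the brightest probe set of each member gene in the 9 arrays, by group (horizontal axis); points are arrays and bars are the mean ± SD (n = 3). Dact2 and Ccdc88c sit at 5.14 to 6.89 in the control arrays and at 8.09 to 9.01 in the 6 NF1 RNAi arrays, and Fzd1 is highest in the 3 U0126 arrays, at 9.18 to 9.53.

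The 2 Frizzled receptors, which bind Wnt at the cell surface, moved in different comparisons. Fzd1 (probe set 1370256_at) was at log2 8.5, 7.67 and 7.79 in the control arrays, at 8.05, 8.01 and 8.13 with NF1 RNAi and at 9.29, 9.18 and 9.53 with U0126 added. The 3 U0126 arrays were above all others, while the NF1 RNAi arrays lay inside the control range. In intensity, the group means were 261 ± 87.5, 267 ± 11.4 and 648 ± 81.9 (SD, n = 3). Fzd1 rose by 1.27 ± 0.19 (SE) with U0126 against NF1 RNAi (adjusted p = 0.00367) and by 1.35 ± 0.19 against the controls (2.55-fold, adjusted p = 0.000805). Its difference of 0.08 ± 0.19 between NF1 RNAi and control did not pass (adjusted p = 0.834), and its sign turned without Control RNAi replicate 2 (-0.079) or 3 (-0.019). With array weights it was 0.35 and passed (adjusted p = 0.0337).

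Fzd2 (1398304_at) was lowest with NF1 RNAi. It was at log2 10.56, 10.09 and 10.17 in controls, 9.48, 9.57 and 9.53 with NF1 RNAi, and 10.12, 9.85 and 9.92 with U0126 added. All NF1 RNAi arrays were below all others, and the U0126 arrays partly reached into the control range. Fzd2 fell by 0.75 ± 0.12 with NF1 RNAi (1.68-fold lower, adjusted p = 0.00265). The value with U0126 was 0.43 ± 0.12 above NF1 RNAi (adjusted p = 0.0563, or 0.0271 with the replicate block), and without Control RNAi replicate 1 that difference passed (adjusted p = 0.00771). It was 0.31 ± 0.12 below the controls (adjusted p = 0.0861, or 0.0477 with the block).

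Dact2 (1383205_at), a Dishevelled-binding protein of the Dapper family, had low values in the controls and higher ones in every NF1 RNAi array. It was at log2 5.14, 6.22 and 6.16 in the controls, at 8.24, 8.40 and 8.09 with NF1 RNAi, and at 8.19, 8.57 and 8.40 with U0126 added. The NF1 RNAi groups overlapped each other and lay clear of the controls, of which replicate 1 was lowest. In intensity units the means were 59.4 ± 21.9, 303 ± 32.4 and 335 ± 43.4 (SD, n = 3), and the log2 levels ran from percentile 27.9 to percentile 74.0 of their arrays. The NF1 RNAi mean was 2.41 above control (5.30-fold) and 2.06 without Control RNAi replicate 1. With U0126 the mean was 2.55 above control (5.85-fold; 2.20 without that replicate) and 0.14 above NF1 RNAi.

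Ccdc88c (1383935_at) encodes a large Dishevelled-binding protein that also contacts G proteins. It was at log2 5.71, 6.50 and 6.89 in controls, 8.97, 8.94 and 9.01 with NF1 RNAi, and 8.79, 8.56 and 8.56 with U0126 added. Control replicate 1 was again lowest, and the 3 U0126 arrays lay below the 3 NF1 RNAi arrays and above every control. The intensity means were 86.3 ± 33.4, 502 ± 11.1 and 397 ± 37.4 (SD, n = 3). The NF1 RNAi mean was 2.60 above control (6.08-fold), or 2.28 without Control RNAi replicate 1. With U0126 it was 2.27 above control (4.81-fold; 1.94 without that replicate) and 0.34 below NF1 RNAi. Across the 9 arrays Dact2 and Ccdc88c had a Pearson r of 0.972, a description of the points, which share the same 3 groups by which both were chosen.

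Axin2 (1387184_at), the scaffold of the destruction complex that is itself a Wnt target, rose in both NF1 RNAi groups. It was at log2 6.25, 6.02 and 6.33 in controls, 6.84, 6.99 and 7.03 with NF1 RNAi, and 7.03, 7.04 and 7.30 with U0126 added. Every NF1 RNAi array was above every control array, and the lowest U0126 array just cleared the highest NF1 RNAi array. The intensity means were 72.9 ± 8.0, 123 ± 8.36 and 139 ± 15.1 (SD, n = 3). Axin2 rose by 0.75 ± 0.10 with NF1 RNAi (1.69-fold, adjusted p = 0.00118) and by 0.92 ± 0.10 with NF1 RNAi and U0126 (1.90-fold, adjusted p = 0.000218). Between U0126 and NF1 RNAi the difference was 0.17 ± 0.10 (adjusted p = 0.401), with a 95% interval of -0.07 to 0.41. Its r over the 9 arrays was 0.910 with Dact2 and 0.891 with Ccdc88c, again over arrays that share their groups.

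Gsk3b (1370267_at), the kinase that marks beta-catenin for degradation and that also acts in many other pathways, was lower in both NF1 RNAi groups. It was at log2 9.0, 8.82 and 8.76 in controls, 8.45, 8.43 and 8.23 with NF1 RNAi, and 8.26, 8.19 and 8.36 with U0126 added. No array of the NF1 RNAi groups reached the controls, and those groups overlapped each other. With NF1 RNAi, Gsk3b fell by 0.49 ± 0.09 (1.41-fold lower, adjusted p = 0.00490), and by 0.59 ± 0.09 with NF1 RNAi and U0126 (adjusted p = 0.00119). U0126 against NF1 RNAi gave -0.10 ± 0.09 (adjusted p = 0.603), with a 95% interval of -0.30 to 0.11.

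Apc, the tumour suppressor that holds beta-catenin in the destruction complex, fell with U0126 in 2 of its 3 probe sets. The brightest (1376629_at) was at log2 10.95, 11.08 and 11.04 in controls, 11.17, 11.18 and 11.23 with NF1 RNAi, and 10.83, 10.89 and 10.90 with U0126. The NF1 RNAi arrays were highest and the U0126 arrays lowest, with no overlap of groups. It fell by 0.32 ± 0.06 with U0126 against NF1 RNAi (adjusted p = 0.0101), while NF1 RNAi was 0.17 ± 0.06 above control (adjusted p = 0.0780) and U0126 0.15 below control (adjusted p = 0.0995). The second (1387837_at) was at 9.19, 9.28 and 9.31, then 9.38, 9.37 and 9.47, then 9.05, 9.03 and 9.13 in the same order of groups, which is the same order of levels. It fell by 0.34 ± 0.06 with U0126 against NF1 RNAi (adjusted p = 0.0103). Against control it was 0.19 lower with U0126 (adjusted p = 0.0531, 0.0384 with the replicate block, 0.0354 without Control RNAi replicate 1) and 0.15 higher with NF1 RNAi (adjusted p = 0.146). The third (1379840_at) stayed between 6.40 and 6.49 in all 9 arrays, with adjusted p of 0.771, 0.968 and 0.782 in the 3 comparisons.

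Ctnnb1, which encodes beta-catenin, had 3 bright probe sets that fell with U0126 and a dim one that did not pass. The brightest (1373067_at) was at log2 13.28, 13.20 and 13.22 in controls, 13.38, 13.30 and 13.39 with NF1 RNAi, and 13.07, 13.01 and 13.08 with U0126. The next (1373470_at) was at 13.13, 13.05 and 13.03, then 13.16, 13.08 and 13.12, then 12.86, 12.79 and 12.66. In both, and in 1369733_at, the U0126 arrays were below every other array. The latter was at 10.60, 10.60 and 10.58, then 10.72, 10.70 and 10.68, then 10.15, 10.20 and 9.90. Against NF1 RNAi they fell with U0126 by 0.30 ± 0.06 (adjusted p = 0.0119), 0.35 ± 0.07 (adjusted p = 0.0125) and 0.62 ± 0.08 (1.53-fold lower, adjusted p = 0.00156). Against control, 1373470_at and 1369733_at fell by 0.29 ± 0.07 (adjusted p = 0.0104) and 0.51 ± 0.08 (1.42-fold lower, adjusted p = 0.00131), and the brightest was 0.18 ± 0.06 lower (adjusted p = 0.0504, or 0.0443 with the replicate block). With NF1 RNAi alone these 3 differed from control by 0.12, 0.05 and 0.11 (adjusted p = 0.185, 0.671 and 0.411). The dim probe set (1375284_at), between percentiles 18.0 and 26.3 of its arrays, was 0.24 above control with NF1 RNAi (adjusted p = 0.0861, and 0.0364 without Control RNAi replicate 3). All 4 probe sets measure transcript, not beta-catenin protein.

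Tcf7l2, the TCF/LEF factor that binds DNA and recruits beta-catenin, had 5 probe sets, all above control with NF1 RNAi and all lower again with U0126 by sign, few of them past the test. The brightest (1377156_at) was at log2 9.17, 9.47 and 9.46 in controls, 9.62, 9.76 and 9.71 with NF1 RNAi, and 9.27, 9.47 and 9.43 with U0126. It rose by 0.33 ± 0.10 with NF1 RNAi (adjusted p = 0.0370), a call lost, at adjusted p of up to 0.121, without Control RNAi replicate 1, any NF1 RNAi array, or U0126 replicate 2 or 3. With U0126 it was 0.31 ± 0.10 below NF1 RNAi (adjusted p = 0.0794, or 0.0154 with the replicate block and 0.0236 without Control RNAi replicate 1) and 0.02 above control. The U0126 arrays overlapped the controls and lay below every NF1 RNAi array. The second (1378048_at) rose by 0.22 ± 0.07 with NF1 RNAi (adjusted p = 0.0400), a call lost without any single array other than Control RNAi replicate 2 (adjusted p of up to 0.134).

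The other Tcf7l2 probe sets were dimmer. The probe set 1392592_at was at 6.20, 6.47 and 6.67 in controls, 6.67, 6.86 and 7.02 with NF1 RNAi, and 6.42, 6.46 and 6.62 with U0126. Its difference of 0.40 ± 0.13 between NF1 RNAi and control missed the threshold (adjusted p = 0.0583) but passed with the replicate block (adjusted p = 0.00439), and without Control RNAi replicate 3 (0.0246) or NF1 RNAi replicate 1 (0.0468). With U0126 it was 0.35 ± 0.13 below NF1 RNAi (adjusted p = 0.139, or 0.0138 with the block). The probe set 1379815_at was at 5.68, 5.63 and 5.85, then 6.06, 5.84 and 5.92, then 5.39, 5.53 and 5.50. It fell by 0.46 ± 0.08 with U0126 against NF1 RNAi (adjusted p = 0.00848), with no overlap of arrays. The dimmest (1394497_at) passed in no comparison (adjusted p = 0.141, 0.183 and 0.957).

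**Figure D2:**
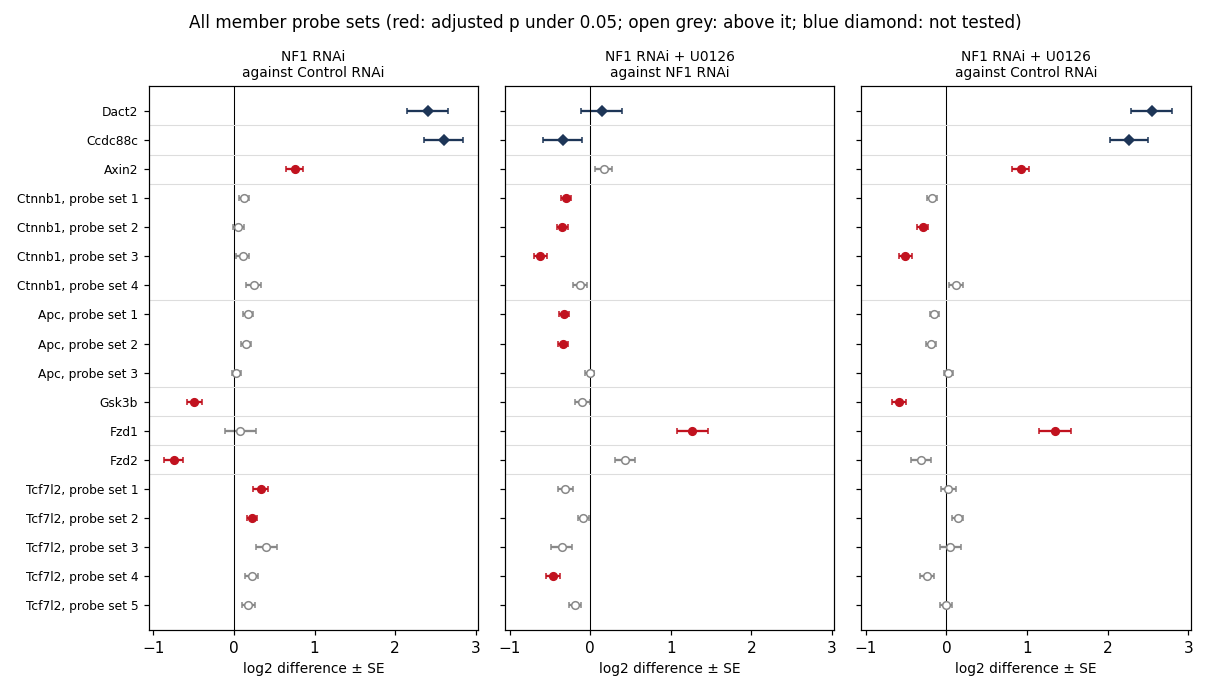
Log2 difference (horizontal axis) of each member probe set (vertical axis) in the 3 comparisons; points are limma estimates, bars are standard errors, filled red points passed an adjusted p of 0.05, and probe sets are numbered from the brightest. Axin2 is right of 0 against control with and without U0126 (0.75 and 0.92), Fzd1 passed in the comparisons with U0126 (1.27 and 1.35) and not with NF1 RNAi alone (0.08), and 3 Ctnnb1 probe sets are left of 0 with U0126. Dact2 and Ccdc88c are drawn as diamonds, without a test.

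By Pearson r over the 9 arrays, among 2238 genes that spanned at least 1 log2 unit, the genes most like Dact2 were Trappc14 (0.995), Pls1, Smurf1, Tusc2 (0.993 each) and Rasd1 (0.992). Those most like Ccdc88c were Uggt2 (0.991), Arpc1a (0.990), Ints6l, Gdf11 (0.988 each) and C12h12orf76 (0.987). For Axin2 they were Tnp1 (0.982), Nhsl2 (0.980), Nme3 (0.974), Kdm7a and Acsl3 (0.973 each). These are descriptions over 9 arrays in 3 groups, where any gene with the same order of groups has a high r.

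Around the members, 97 other Wnt pathway genes in 8 roles were measured, each by its brightest probe set, from a list of 121. This list was chosen with earlier results of these data known. Its shares are set beside those of all genes as a description, not a test of the pathway. With NF1 RNAi 30 of 97 changed (30.9%), against 24.6% of all 14213 genes, with 17 higher (12.1% of all genes were) and 13 lower (12.4% of all), and the median log2 difference was 0.02, against 0.0165. Without Control RNAi replicate 2 that count was 19, and the balance turned, with 8 higher and 11 lower. At an adjusted p under 0.01 it was 15, with 6 higher and 9 lower. With U0126 against NF1 RNAi 28 changed (28.9%), against 12.4% of all genes, with 10 higher (5.95% of all genes were) and 18 lower (6.44% of all). Without NF1 RNAi replicate 2, 18 changed. With NF1 RNAi and U0126 against control 40 changed (41.2%), against 33.5% of all genes, with 17 higher (16.6% of all genes were) and 23 lower (16.9% of all). Of the 97, 10 passed in all 3 comparisons and 49 in none (10.3% and 50.5%), against 3.44% and 59.4% of all genes.

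Among 13 Wnt ligands none passed the limma test with NF1 RNAi, against 24.6% of all genes, and 0 had an unadjusted p under 0.05. Wnt9a rose with U0126 against NF1 RNAi, and Wnt9a and Wnt8b rose with both against control. Those are 7.69% and 15.4% of the ligands, against 12.4% and 33.5% of all genes. Wnt9a was at log2 6.03 to 6.41 in controls, 6.09 to 6.51 with NF1 RNAi and 7.55 to 7.64 with U0126, a rise of 1.33 ± 0.12 over NF1 RNAi (adjusted p = 0.000324). Wnt8b, near the floor of the arrays at 3.41 to 3.85, rose by 0.31 ± 0.07 over control (adjusted p = 0.00711). Of 5 genes for ligand release and agonists, Ndp, which encodes the Frizzled ligand norrin, rose by 1.23 ± 0.21 with NF1 RNAi (adjusted p = 0.00298) and fell by 1.61 ± 0.21 with U0126 (adjusted p = 0.00147). Porcn, the enzyme that adds a lipid to Wnt proteins, fell with NF1 RNAi by 0.53 ± 0.11 (adjusted p = 0.00968) and by 1.01 ± 0.11 with both (adjusted p = 0.000192). Its further drop of 0.48 with U0126 (adjusted p = 0.0258) was lost without NF1 RNAi replicate 2 or 3 (adjusted p of up to 0.106). A dimmer Porcn probe set passed in neither of these steps (-0.22 and -0.23, adjusted p = 0.198 and 0.235) and fell by 0.45 with both (adjusted p = 0.0110).

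Of 13 receptors and co-receptors, 3 rose and 2 fell with NF1 RNAi, and 3 rose and none fell with U0126 against NF1 RNAi (limma; 1 was lower at an unadjusted p under 0.05). So 38.5% and 23.1% passed, against 24.6% and 12.4% of all genes. Fzd8 rose with U0126 by 1.08 ± 0.17 (adjusted p = 0.00475), from 8.31 to 9.04 in the NF1 RNAi arrays to 9.74 to 9.85. Against control, NF1 RNAi alone gave -0.39 for Fzd8 (adjusted p = 0.162, or 0.0336 with the replicate block). Fzd6, a receptor of the planar polarity branch, rose in both steps, by 0.44 ± 0.06 with NF1 RNAi (adjusted p = 0.00160) and by 0.60 ± 0.06 with U0126 (adjusted p = 0.000673). Ptk7, a co-receptor of the same branch, fell by 0.91 ± 0.20 with NF1 RNAi (adjusted p = 0.0121). Lgr4, the receptor of R-spondins, fell with NF1 RNAi by 0.91 ± 0.15 (adjusted p = 0.00276) and rose by 0.63 ± 0.15 with U0126 (adjusted p = 0.0289), the latter lost without any one NF1 RNAi or U0126 array (adjusted p of up to 0.103).

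Of 13 secreted and surface inhibitors, 1 rose and 2 fell with NF1 RNAi, and 2 rose and 3 fell with U0126. This was 23.1% and 38.5% of them, against 24.6% and 12.4% of all genes. Sostdc1, a secreted antagonist of Wnt and BMP, was at log2 8.71, 8.73 and 8.74 in controls, 5.96, 6.38 and 6.21 with NF1 RNAi, and 5.70, 5.73 and 5.45 with U0126. It fell by 2.54 ± 0.11 with NF1 RNAi (adjusted p = 5.88e-06). A further drop of 0.55 with U0126 (adjusted p = 0.0141) was lost without NF1 RNAi replicate 2 or 3 (adjusted p of up to 0.0548). Apcdd1, a membrane inhibitor, was at 5.24 to 5.61 in all control and NF1 RNAi arrays and at 7.34 to 7.57 with U0126, a rise of 1.90 ± 0.10 (adjusted p = 1.72e-05). Sfrp1, a secreted decoy of Frizzled, fell by 1.03 ± 0.20 with both against control (adjusted p = 0.00412), and by 0.87 ± 0.20 with U0126 against NF1 RNAi (adjusted p = 0.0243). The latter was lost without any NF1 RNAi array or U0126 replicate 2 or 3 (adjusted p of up to 0.0925), though 2 other Sfrp1 probe sets fell in it too. Sfrp4 had 1 probe set that rose by 1.15 ± 0.33 with NF1 RNAi (adjusted p = 0.0347) and fell by 1.52 with U0126 (adjusted p = 0.0185), with NF1 RNAi arrays spread over 6.82, 7.78 and 8.48. The first call was lost without any single array other than NF1 RNAi replicate 1 and U0126 replicate 1 (adjusted p of up to 0.103), the second without NF1 RNAi replicate 2 or any U0126 array (up to 0.0756), and a dimmer Sfrp4 probe set passed in neither (-0.07 and 0.23).

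Dishevelled and its partners, the group to which Dact2 and Ccdc88c belong by function, numbered 18 other genes. With NF1 RNAi 6 rose and 4 fell, with U0126 against NF1 RNAi 2 rose and 5 fell, and with both against control 5 rose and 7 fell. In the same order, 55.6%, 38.9% and 66.7% of the 18 passed, against 24.6%, 12.4% and 33.5% of all genes. Dact1, the Dapper family member best known to bind Dishevelled, was at log2 7.38, 6.90 and 7.23 in controls, 8.37, 8.29 and 8.37 with NF1 RNAi, and 9.42, 9.51 and 9.60 with U0126. It rose in both steps, by 1.17 ± 0.11 with NF1 RNAi (adjusted p = 0.000186) and by 1.17 ± 0.11 with U0126 (adjusted p = 0.000376), and a second Dact1 probe set rose by 1.17 and 1.22. Vangl1, a membrane protein of planar polarity, rose by 1.82 ± 0.07 with NF1 RNAi (adjusted p = 3.88e-06) and differed by -0.10 with U0126 (adjusted p = 0.458), and a dim second probe set was 0.33 above control and did not pass. Prickle2, another polarity gene, was 8.41 to 8.93 with NF1 RNAi and 6.35 to 6.67 with U0126, a fall of 2.23 ± 0.23 (adjusted p = 0.000502), while the dimmest of its 3 probe sets did not pass (-0.38, adjusted p = 0.116). Its rise of 0.88 with NF1 RNAi (adjusted p = 0.0244) was lost without Control RNAi replicate 2 or 3 or NF1 RNAi replicate 1 or 2 (adjusted p of up to 0.0868). The other Prickle2 probe sets did not pass with NF1 RNAi (0.93 and 0.14, adjusted p = 0.0572 and 0.526). Nkd2, a Dishevelled-binding brake on Wnt signalling, fell by 2.20 ± 0.16 with U0126 (adjusted p = 0.000112), from 9.78 to 10.14 down to 7.37 to 7.99.

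The close relatives of these genes, picked after their values were seen, did not share one order of groups. Dact3 fell by 0.52 with NF1 RNAi (adjusted p = 0.00450), while Dact1 rose and Dact2 was higher. Ccdc88a, the paralogue of Ccdc88c known as girdin, differed from control by -0.08 with NF1 RNAi and fell by 0.47 with U0126 (adjusted p = 0.0343). Vangl2 fell with NF1 RNAi by 0.64 (adjusted p = 0.00104), and Prickle1 rose by 1.37 (adjusted p = 0.000386) and differed by -0.23 with U0126 (adjusted p = 0.444).

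**Figure D3:**
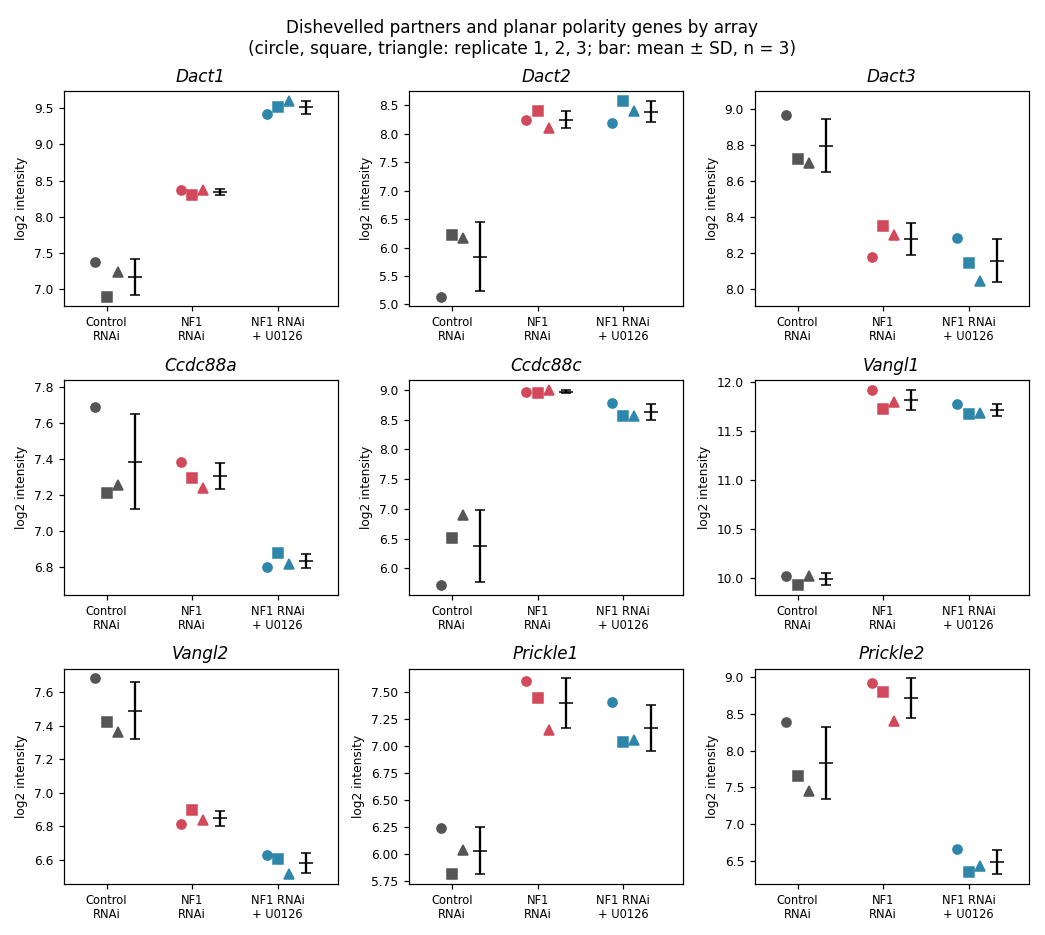
Log2 intensity (vertical axis) of Dact, Ccdc88, Vangl and Prickle genes in each of the 9 arrays by group (horizontal axis); points are arrays and bars are the mean ± SD (n = 3). Dact1 is higher in each successive group (7.17, 8.34 and 9.51), Dact2 and Ccdc88c are higher in both NF1 RNAi groups, and Dact3 and Vangl2 are lower there.

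Of 10 other genes of the destruction complex and its regulators, 1 rose and 2 fell with NF1 RNAi and 1 fell with U0126. As shares, 30.0% and 10.0% passed, against 24.6% and 12.4% of all genes. Apc2, the neural relative of Apc, fell in both steps, by 0.61 ± 0.12 with NF1 RNAi (adjusted p = 0.00731) and by 1.31 ± 0.12 with U0126 (adjusted p = 0.000333), and its second probe set fell in both too (0.61 and 1.36 lower on the log2 scale). Btrc, the ubiquitin ligase subunit that recognises marked beta-catenin, rose by 0.54 ± 0.10 with both against control (adjusted p = 0.00280), while its 2 other probe sets were lower and did not pass. Its rise of 0.39 with NF1 RNAi (adjusted p = 0.0198) was lost without Control RNAi replicate 2 or NF1 RNAi replicate 1 (adjusted p of up to 0.0732). Tnks2, a tankyrase that marks Axin for degradation, fell by 0.33 ± 0.07 with NF1 RNAi (adjusted p = 0.0108), though a dim Tnks2 probe set rose by 0.28 (adjusted p = 0.0376). Csnk1e, a casein kinase, fell by 0.23 with both against control (adjusted p = 0.0255), a call lost without Control RNAi replicate 2 or U0126 replicate 1 or 2 (adjusted p of up to 0.0961).

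Among 15 nuclear partners of beta-catenin, 3 rose and none fell with NF1 RNAi (limma; 2 were lower at an unadjusted p under 0.05), and 1 rose and 3 fell with U0126 against NF1 RNAi. That is 20.0% and 26.7% of them, against 24.6% and 12.4% of all genes. With the replicate block 6 rose and 2 fell with NF1 RNAi. The TCF/LEF genes Tcf7 and Lef1 were lowest with U0126. Tcf7 fell by 0.92 ± 0.14 with U0126 (adjusted p = 0.00328), and differed from control by -0.36 with NF1 RNAi (adjusted p = 0.102, or 0.0336 with the block). Lef1 fell by 1.56 ± 0.33 with both against control (adjusted p = 0.00657) and by 1.22 ± 0.33 with U0126 against NF1 RNAi (adjusted p = 0.0468). The latter was lost without any single array other than Control RNAi replicates 1 and 3 (adjusted p of up to 0.147), and Control RNAi replicate 1, at 9.38, stood above the other controls at 8.07 and 7.97. A dimmer Lef1 probe set did not pass with U0126 against NF1 RNAi (-1.17, adjusted p = 0.101). It fell by 1.39 with both against control (adjusted p = 0.0257). The corepressor gene Tle3 fell by 1.27 ± 0.06 with U0126 (adjusted p = 1.24e-05), and was 0.19 above control with NF1 RNAi (adjusted p = 0.0612, or 0.0437 with the block). Its relative Tle1 rose by 0.40 ± 0.08 with U0126 (adjusted p = 0.00979), while its rise of 0.26 with NF1 RNAi (adjusted p = 0.0402) was lost without any single array other than Control RNAi replicate 3 (adjusted p of up to 0.119).

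Of 10 transcriptional targets other than Axin2, 2 rose and 2 fell with NF1 RNAi, and 1 rose and 4 fell with U0126 against NF1 RNAi. So 4 and 5 of the 10 passed, against 24.6% and 12.4% of all genes. Ccnd1, the gene of cyclin D1, was at log2 12.23, 11.52 and 11.21 in controls, 12.74, 12.28 and 12.20 with NF1 RNAi, and between 9.90 and 10.05 with U0126. It fell by 2.42 ± 0.24 with U0126 (adjusted p = 0.000376). With NF1 RNAi it was 0.75 above control (adjusted p = 0.0513, or 0.00836 with the replicate block), while 1 of 2 other Ccnd1 probe sets rose by 0.77 (adjusted p = 0.0292). Myc fell by 1.24 ± 0.19 with U0126 (adjusted p = 0.00337) and by 0.73 with NF1 RNAi (adjusted p = 0.0213), the latter lost without Control RNAi replicate 2 or 3 or NF1 RNAi replicate 1 (adjusted p of up to 0.0749). Bambi, a pseudoreceptor of TGF-beta signalling, rose by 1.05 ± 0.08 with NF1 RNAi (adjusted p = 7.32e-05) and fell by 0.55 ± 0.08 with U0126 (adjusted p = 0.00337). Fosl1, an AP-1 gene, fell by 0.73 ± 0.15 with U0126 (adjusted p = 0.0139), lost without U0126 replicate 2 or 3 (adjusted p of up to 0.0528), and by 0.94 ± 0.15 with both against control (adjusted p = 0.00128).

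**Figure D4:**
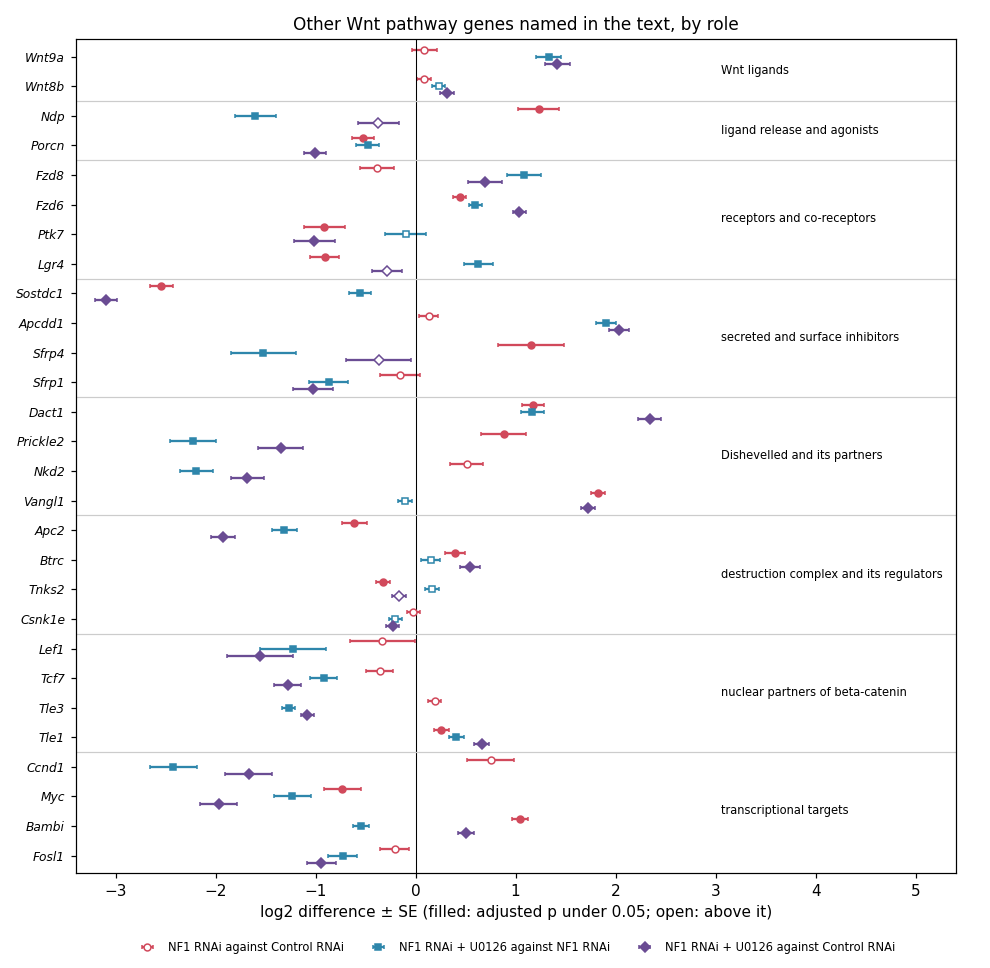
Log2 difference (horizontal axis) of 28 other Wnt pathway genes named in the text, grouped by role (vertical axis), in the 3 comparisons; points are limma estimates, bars are standard errors, and filled points passed an adjusted p of 0.05. Sostdc1 is farthest left with NF1 RNAi (-2.54), Dact1 is right of 0 in all 3 comparisons, and Ccnd1, Prickle2 and Nkd2 are more than 2 log2 units left of 0 with U0126 against NF1 RNAi.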

How the data were processed

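Biotin-labelled RNA from the Schwann cell cultures was measured on 9 Affymetrix arrays, 3 a group. The authors deposited RMA values, per the submitters' processing notes, as linear intensity on 31099 probe sets (5.62 to 25800.2); no source used here names the software version or how probe sets were defined. RMA summarises probes after quantile normalization, which hides shifts common to all genes. Values were used as log2(intensity + 1). A group-means model was fitted in limma 3.58.1 (R 4.3.3) over all 9 arrays and 31042 probe sets, without 57 control probe sets, with Benjamini-Hochberg adjustment over all of them and a threshold of 0.05; the error in parentheses or after ± is the SE of a difference or, where so marked, the SD.

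Probe sets were named from the platform annotation, updated to RefSeq: 20826 had 1 gene, 436 several and 9780 none listed. Members and gene lists were chosen with earlier results of these data known. Named genes outside the members were, for each role, up to 4 that passed in any comparison with the largest differences. Number of arrays, 3 a group, limits the precision.

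The labels do not say whether a replicate number marks the same culture or day. Residuals of same-numbered arrays correlated in all 9 pairs (r of 0.137 to 0.586), against -0.484 to 0.368 in 18 other pairs, so the ranges overlapped. The group-means model used no pairing. Alternatives were a block for the replicate number, a minimum of log2 6 in 3 arrays, no pseudocount, centring on the median, quantile normalization, fits on the 2 groups compared, trend with robust shrinkage, array weights, 1 probe set a gene, a threshold of 0.01, and leaving out each array or all replicate 1 arrays. The fit was tested on simulated data. Those arrays were drawn independently, so that run does not cover the correlation by replicate number seen here.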

Additional observations from a re-analysis of the deposited data

How the results depend on the processing

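Counts of member probe sets past the threshold moved as follows. For NF1 RNAi against control (5), they were 3 with only the 2 groups compared, 10 with array weights, 3 at adjusted p under 0.01, and 3 to 6 with 1 array left out. For U0126 against NF1 RNAi (7), they were 4 with 1 probe set a gene (fewer probe sets tested), 3 at adjusted p under 0.01, and 7 to 9 with 1 array left out. For both against control (5), they were 8 with array weights and 5 to 6 with 1 array left out. In the wider list, 30 (17 higher, 13 lower) became 15 (6 higher, 9 lower) at 0.01 and 19 to 31 with 1 array left out, 28 became 16 and 18 to 30, and 40 became 36 to 42 with 1 array left out.

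With the replicate number as a block, the counts of member probe sets were 6, 10 and 8, and 7 of 48 member calls changed, all 7 gained. In the wider list 20 of 291 calls changed, of which 1 was lost. The block changed no other member call.

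Signs turned for 5 differences near 0 that did not pass as reported. Apc 1379840_at (U0126 against NF1 RNAi) became 0.0059 with array weights and 0.0080 without all replicate 1 arrays, and was -0.023 to 0.0076 with 1 array left out. Fzd1 (NF1 RNAi against control) was -0.079 to 0.34 with 1 array left out, and 0.35 with array weights, where it passed (adjusted p = 0.0337). For both against control, Tcf7l2 1377156_at became -0.044 with array weights and -0.014 without all replicate 1 arrays (-0.075 to 0.084 with 1 array left out). Tcf7l2 1392592_at became -0.034 without all replicate 1 arrays (-0.074 to 0.16 with 1 array left out), and Tcf7l2 1394497_at became 0.010 with median centring (-0.033 to 0.031 with 1 array left out). The cause was not tested.

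Over all settings, of the differences of the 16 tested probe sets 838 kept direction and side of the threshold, 44 newly passed, 26 no longer passed and 16 reversed. Median centring and quantile normalization moved the median difference of all probe sets by at most 0.0176 (log2). These values carry no measure of background, so the dim probe sets have no detection call. Of 62 calls in the 28 wider genes named, 49 held without any single array.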
